A study of Mus musculus with 16 samples.

Results

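The genes described here are the potassium channel family, taken as the protein-coding genes whose symbol starts with Kcn, without antisense transcripts, and with at least 10 counts in at least 4 of the 16 libraries. Of 94 protein-coding Kcn genes among the 52636 genes in the table of counts, 65 met this rule, as did 18922 of all genes. RNA was sequenced from mouse islets kept for 10 days in 4 conditions, with 4 independent experiments for each condition: without additions (control), with 50 pg/ml of the pro-inflammatory cytokine IL-1β, with 0.2 mM butyrate, a short-chain fatty acid that gut bacteria make, or with both. All islets came from male mice aged 12 weeks, and every library held 500 islets pooled from several mice, so that replicates are experiments rather than mice, and a p-value measures the spread between experiments. No transgene or deletion is named for any condition, and the strain is C57BL/6JRj in the sample labels and C57BL/6NRj in the paper. The question the design addresses is how IL-1β changed gene expression in islets and what butyrate did to those changes and on its own.

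Potassium channels let potassium leave the cell and so hold its membrane negative or bring it back after a depolarization. In the beta cell, ATP-sensitive channels close when glucose is metabolized, the membrane depolarizes, calcium enters and insulin granules fuse, after which voltage-gated and calcium-activated channels repolarize the membrane. Inward rectifiers and 2-pore-domain channels set the resting potential, voltage-gated channels act during the action potential, and auxiliary subunits change the gating or the amount of a pore at the surface.

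The 16 libraries held 18635943 to 25955943 counts (median 22184715). Levels of one gene are given as CPM, a gene's counts scaled to a common library size with TMM factors, and levels of different genes are compared as RPKM, which is CPM per kilobase of exon. Fold changes are on the log2 scale with their standard error (SE), and p-values are those of edgeR's quasi-likelihood test, adjusted by Benjamini-Hochberg over 18587 genes. A gene was called higher or lower at an adjusted p under 0.01. All beta cell markers were present in every condition, and their summed level was 214380 to 237180 CPM in control, 137750 to 179440 CPM with IL-1β, 138090 to 170290 CPM with IL-1β and butyrate, and 222750 to 262260 CPM with butyrate. In whole islets, fewer cells of a type and less RNA per cell cannot be told apart. The 29 Kcn genes outside the rule included 23 that reached 10 counts in no library, and the nearest to the limit was Kcnd2, with 10 counts in 3 libraries. Just inside it were Kcnj9 and Kcnt2, with 10 counts in 4 libraries each.

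The levels of the 65 genes in control islets covered a wide range, and a few genes held most of the total. Kcnk16, the alkaline-activated 2-pore channel TALK-1, was the highest at 179 ± 7.98 RPKM (SD, n = 4), which was 40.5% of the RPKM summed over the family. Kcnh6, an ERG-type voltage-gated channel, followed at 41.7 ± 2.0 RPKM, and Kcnj11, the pore of the ATP-sensitive channel, at 38.4 ± 0.688 RPKM, and these 2 overlapped between libraries. Next came Kcnmb2, a beta subunit of the large-conductance calcium-activated (BK) channel, at 29.3 ± 0.744 RPKM, then Kcnh2, the ERG channel known from the heart, at 20.8 ± 0.226 RPKM and the 2-pore channel Kcnk1 at 20.3 ± 0.769 RPKM, the last 2 again overlapping. The first 5 genes held 69.9% of the total. In all, 10 genes had at least 10 RPKM, 16 had from 1 to 10 RPKM and 39 had less than 1 RPKM. The first class also held Kcnab3 (16.3 ± 0.818 RPKM) and Kcnip1 (15.3 ± 1.65 RPKM).

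**Figure D1:**
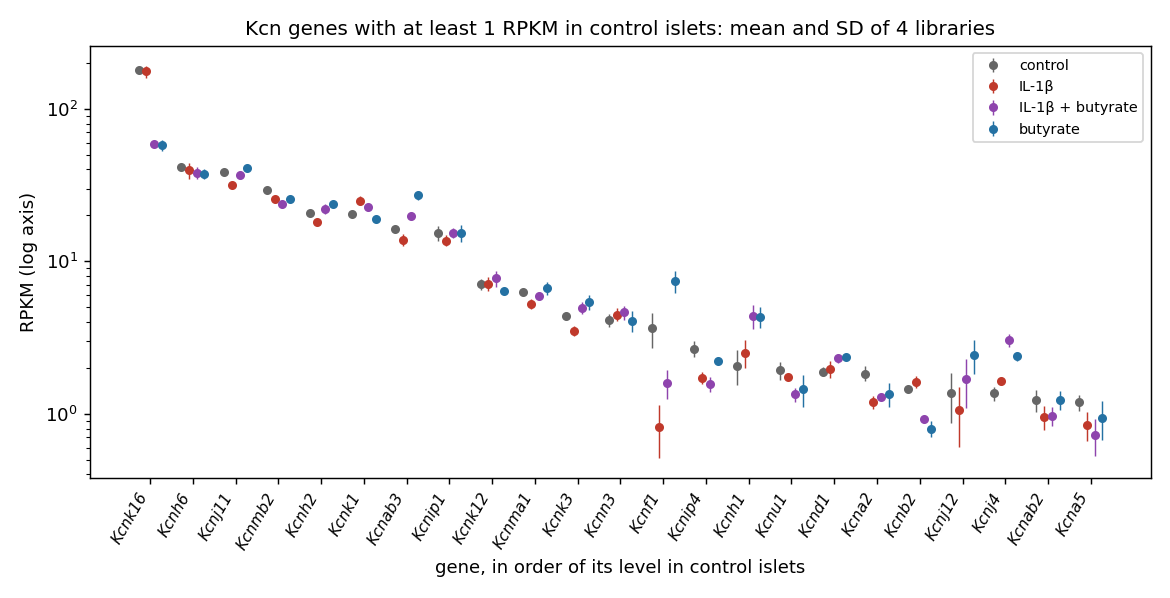
RPKM on a log axis of 23 Kcn genes with at least 1 RPKM in control islets, ordered by that level, with the mean and SD of 4 libraries for each of the 4 conditions. Kcnk16 stood at 179 RPKM in control and at 57.6 RPKM with butyrate, and Kcnf1 ran from 0.824 RPKM with IL-1β to 7.44 RPKM with butyrate.

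With IL-1β, 7 of the 65 genes were higher and 12 were lower than in control, where 11.2% of all genes tested were called higher and 6.59% lower. Kcnf1, a silent voltage-gated subunit, fell most, by 4.46-fold, and Kcnd3, Kcnk10, Kcnip4 and Kcna2 fell as well. Kcnj11, Kcnk3, Kcnh2, Kcnab3, Kcnma1 and Kcnmb2 fell by smaller amounts, while Kcnk1 and Kcnn2 rose by small amounts and Kcnmb1, Kcnj10, Kcnj9 and Kcnt2 rose from very low levels. The median log2 fold change was -0.08 over the family and -0.03 over all genes. With library sizes as the only scaling, 8 of the 65 genes were higher and 7 lower, and over all genes 2798 were higher and 708 lower, against 2087 and 1224 with TMM and 1914 and 1800 with upper-quartile factors.

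When butyrate was added to IL-1β, 15 of the 65 genes were higher and 5 were lower than with IL-1β alone, against 8.41% of all genes higher and 11.1% lower. Kcna7, Kcnt1, Kcnh4, Kcnc1, Kcnj5 and Kcnq1 rose most among the higher genes, and Kcnk13, Kcnt2, Kcnk16, Kcnn2 and Kcnb2 were the 5 that fell. Butyrate alone against control gave 19 higher and 8 lower genes, against 8.53% of all genes higher and 11.4% lower. The medians over the family were 0.17 and 0.19 in these comparisons, against 0.01 over all genes in both. These counts and medians include Kcnj5, higher in both, and Kcnk13, lower in both. Kcnj5 met the rule only through libraries with butyrate and Kcnk13 only through libraries without it. Kcnt2, lower with butyrate added to IL-1β, met it only through the IL-1β libraries. These changes of Kcnj5, Kcnk13 and Kcnt2 support nothing about the family. Over all genes, 1563 were higher and 2066 lower for butyrate added to IL-1β, and 2137 and 1566 with upper-quartile factors. For butyrate alone the corresponding numbers were 1585 and 2112, and 2207 and 1566.

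Against control, islets with IL-1β and butyrate had 17 of the 65 genes higher and 13 lower, where 15.8% of all genes were higher and 14.8% lower. The median was 0.09 over the family and -0.00 over all genes. All genes split into 2937 higher and 2751 lower, and into 3805 and 1884 with library sizes as the only scaling. Over the 4 comparisons, 42 of the 65 genes were called at least once and 23 were called in none. The share of all genes called at least once was not computed, so these counts describe the family without a background. Of the 19 genes higher with butyrate alone, 11 had less than 1 RPKM in control and 2 had at least 10 RPKM, against 39 and 10 of the 65 genes. Their median control level was 0.656 RPKM, close to the 0.650 RPKM of the gene at rank 33 of the 65. The 12 genes lower with IL-1β had a median control level of 4.02 RPKM. By subfamily, the rises with butyrate alone were 3 of 11 inward rectifiers, 1 of 8 2-pore channels, 4 of 12 Kv1 to Kv4 genes, 1 of 2 silent subunits, 2 of 5 KCNQ genes, 4 of 8 EAG genes, 3 of 11 calcium- or sodium-activated channels and 1 of 8 auxiliary genes. The falls with butyrate alone were 2 2-pore channels (Kcnk16 and Kcnk13), 3 Kv1 to Kv4 genes (Kcna2, Kcnb2 and Kcnd3), 1 EAG gene (Kcnh8) and Kcnmb2 and Kcnn2.

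**Figure D2:**
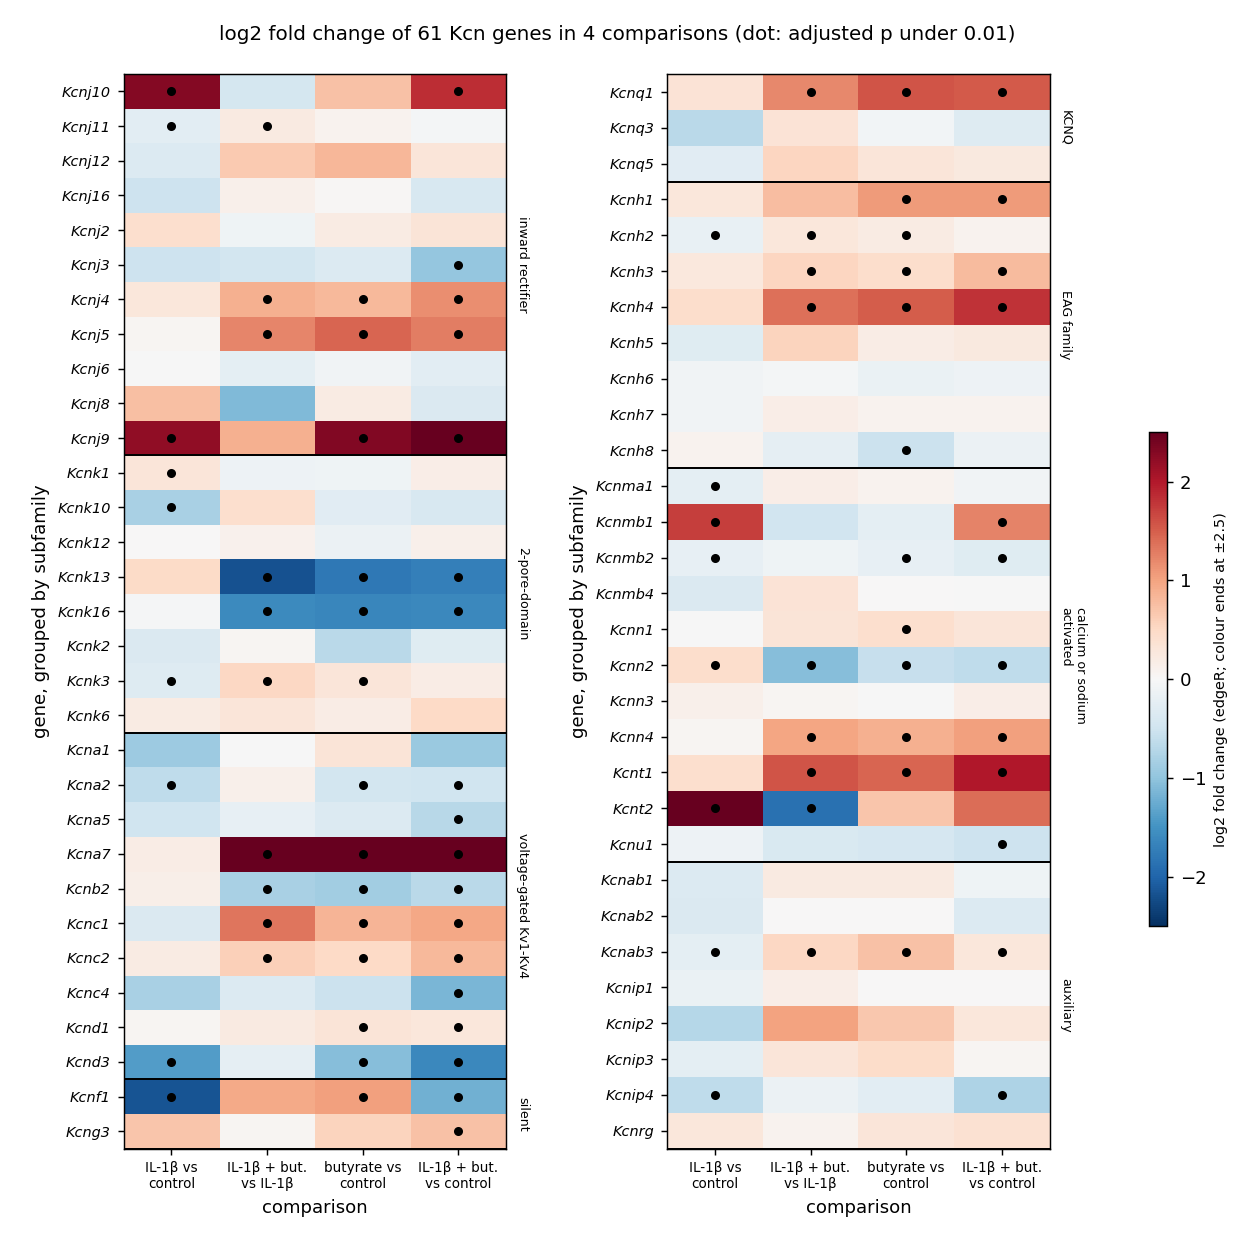
Log2 fold change (colour, ending at 2.5 in either direction) of 61 Kcn genes in the 4 comparisons (each single addition and both additions against control, and butyrate added to IL-1β), grouped by subfamily, with a dot at an adjusted p under 0.01. In the columns for butyrate more of the dots lie on red than on blue, with Kcnk16 and Kcnk13 lower and Kcna7 higher in both.

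The promoters of 48 of the 65 genes were at hand as RefSeq sequences on GRCm38.p6, from 250 bases before to 50 bases after the start of transcription. They were searched on both strands for the GC box (GGGCGG), the CCAAT box (CCAAT), the TATA box (TATAAA) and the cyclic AMP response element (TGACGTCA). The GC box was in 25 of the 48 promoters (52.1%), against 35.9% of 27025 promoters of all genes. The TATA box was in 1 of them (2.08%), against 14.2% of all, the CCAAT box in 33.3% against 37.9%, and the cyclic AMP response element in 0 of them, against 1.88%. The promoters of all genes were not limited to genes that met the rule on counts. The 48 promoters also had a higher median GC content than the promoters of all genes. Whether the share with a GC box differed from that of expressed genes with a similar GC content was not tested. Of the 19 genes higher with butyrate alone, 12 had a promoter at hand, and 8 of these 12 (66.7%) held a GC box. Of the 15 genes higher with butyrate added to IL-1β, 8 had a promoter at hand, and 7 of these 8 (87.5%) held one. The median GC contents of these promoters were 61.0% and 64.2%. In all, 13 genes were higher in both comparisons, so the shares are not independent observations. For the genes lower with butyrate, 2 of 6 promoters at hand held a GC box for butyrate alone and 0 of 3 for butyrate added to IL-1β. Shown here, 5′ to 3′ with GC boxes in capitals, are the promoters of the gene with the largest fall by CPM with butyrate (Kcnk16), the largest fold rise with butyrate (Kcna7) and the deepest fall with IL-1β (Kcnf1), which hold none of the motifs, followed by a pair of genes raised by butyrate that hold GC boxes (Kcnc1 and Kcnh4, chosen after their motifs were seen).
Kcnk16, chr14:20269220-20269519 (- strand): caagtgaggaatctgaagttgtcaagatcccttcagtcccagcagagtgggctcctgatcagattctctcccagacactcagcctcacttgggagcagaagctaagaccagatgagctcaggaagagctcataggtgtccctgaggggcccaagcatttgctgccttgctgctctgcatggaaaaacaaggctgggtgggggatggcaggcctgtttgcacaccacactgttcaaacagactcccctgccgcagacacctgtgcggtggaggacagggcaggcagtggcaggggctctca
Kcna7, chr7:45405710-45406009 (+ strand): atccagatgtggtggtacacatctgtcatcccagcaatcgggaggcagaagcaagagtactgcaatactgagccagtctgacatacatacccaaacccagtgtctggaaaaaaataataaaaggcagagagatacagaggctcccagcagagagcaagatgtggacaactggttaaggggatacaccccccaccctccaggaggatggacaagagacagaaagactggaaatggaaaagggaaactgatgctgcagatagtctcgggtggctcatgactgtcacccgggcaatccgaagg
Kcnf1, chr12:17176839-17177138 (- strand): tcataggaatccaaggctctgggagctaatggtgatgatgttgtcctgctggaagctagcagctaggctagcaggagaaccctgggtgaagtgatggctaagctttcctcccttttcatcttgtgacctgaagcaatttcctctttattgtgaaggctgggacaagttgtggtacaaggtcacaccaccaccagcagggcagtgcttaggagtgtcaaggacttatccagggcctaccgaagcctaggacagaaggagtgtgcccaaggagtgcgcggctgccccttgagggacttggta
Kcnc1, chr7:46396218-46396517 (+ strand): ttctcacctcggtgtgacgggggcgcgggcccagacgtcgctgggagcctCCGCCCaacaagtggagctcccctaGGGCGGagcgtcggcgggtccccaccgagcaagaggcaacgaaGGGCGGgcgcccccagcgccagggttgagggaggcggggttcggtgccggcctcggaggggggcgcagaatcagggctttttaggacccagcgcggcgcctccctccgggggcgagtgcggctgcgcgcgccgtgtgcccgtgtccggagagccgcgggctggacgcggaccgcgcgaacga
Kcnh4, chr11:100759729-100760028 (- strand): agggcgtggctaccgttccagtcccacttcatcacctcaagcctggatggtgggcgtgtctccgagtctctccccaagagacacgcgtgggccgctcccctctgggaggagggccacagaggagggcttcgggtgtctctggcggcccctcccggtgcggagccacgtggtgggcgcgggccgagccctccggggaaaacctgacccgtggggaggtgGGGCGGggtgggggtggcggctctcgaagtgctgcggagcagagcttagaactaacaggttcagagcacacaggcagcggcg

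Among the 11 inward rectifiers, Kcnj11 (Kir6.2), the pore of the ATP-sensitive channel that glucose metabolism closes, was by far the highest in RPKM. Kcnj11 measured 144, 139, 143 and 139 CPM in the control libraries and 122, 110.4, 118 and 117 CPM with IL-1β. With IL-1β and butyrate it measured 143, 128, 143 and 130.1 CPM, and with butyrate 152, 149.7, 144 and 153 CPM. All IL-1β libraries lay below those of every other condition. Kcnj11 fell with IL-1β (log2 fold change -0.27 ± 0.05, adjusted p = 4.27e-05) and rose when butyrate was added (log2 fold change 0.22 ± 0.05, adjusted p = 0.000612). These comparisons share the IL-1β libraries. Of 8 beta cell markers, 6 were lower and 1 was higher with IL-1β, and 0 were higher and 2 lower when butyrate was added, and their part in these values was not tested. Butyrate alone gave log2 fold change 0.08 ± 0.05, adjusted p = 0.177, and islets with both additions gave log2 fold change -0.05 ± 0.05, adjusted p = 0.395 against control.

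Abcc8 (SUR1), the regulatory subunit that forms the beta cell ATP-sensitive channel with Kcnj11, went another way with IL-1β. Abcc8 measured 1815, 1658, 1717 and 1653 CPM in control and 2081, 1855, 1889 and 2015 CPM with IL-1β. It measured 2489.7, 2155, 2248 and 2301 CPM with both additions and 2108.5, 2159, 1997 and 2228.5 CPM with butyrate. Control was the lowest condition, with no overlap with any other. Abcc8 rose with IL-1β (log2 fold change 0.20 ± 0.05, adjusted p = 0.00592), with butyrate added to IL-1β (log2 fold change 0.23 ± 0.05, adjusted p = 0.00147) and with butyrate alone (log2 fold change 0.31 ± 0.05, adjusted p = 4.82e-05). Of the second pair of subunits, which form vascular ATP-sensitive channels, Abcc9 (SUR2) measured 2.71, 3.04, 2.77 and 3.12 CPM in control and 1.86, 1.9, 1.92 and 2.02 CPM with IL-1β. It measured 1.14, 1.02, 1.01 and 1.2 CPM with both additions and 0.904, 1.29, 1.88 and 1.42 CPM with butyrate. Abcc9 was highest in control and fell in each comparison, with log2 fold changes of -0.59 ± 0.17 for IL-1β, -0.82 ± 0.19 for butyrate added to IL-1β and -1.09 ± 0.18 for butyrate alone (adjusted p = 0.00794, adjusted p = 0.00153 and adjusted p = 2.44e-05). Kcnj8 (Kir6.1), the pore of that pair, was at 0.45 ± 0.203 CPM in control (SD, n = 4) and was called in no comparison.

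**Figure D3:**
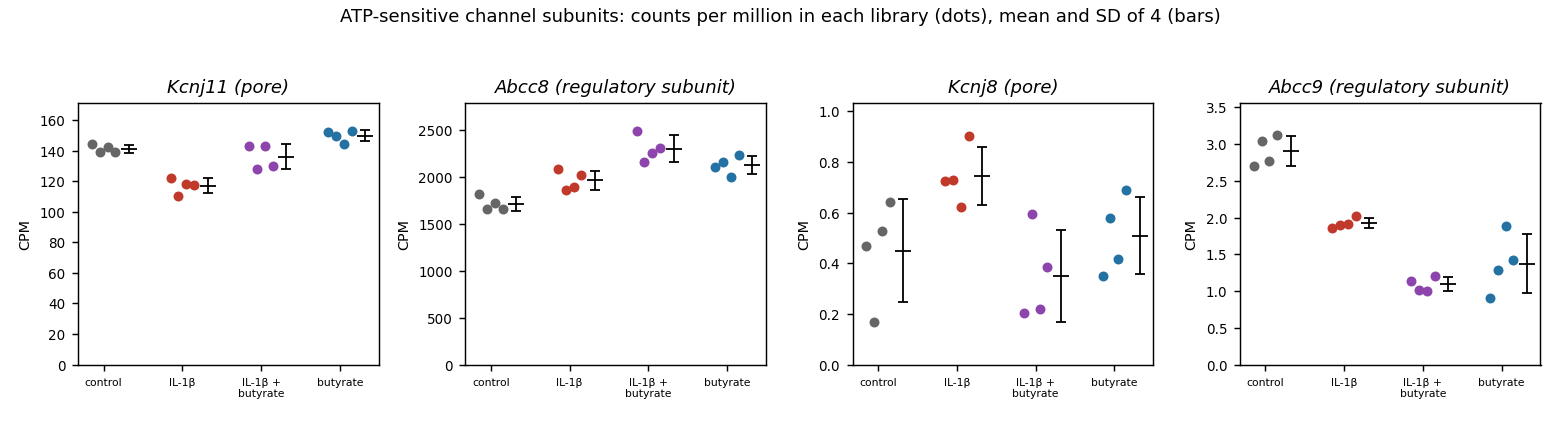
CPM of the subunits of ATP-sensitive channels in each of 16 libraries (dots) with the mean and SD of 4 (bars), by condition. Kcnj11 was lowest with IL-1β, between 110.4 and 122 CPM, while Abcc8 was lowest in control, and Abcc9 was highest in control, between 2.71 and 3.12 CPM.

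The G-protein-gated rectifiers, which open when inhibitory receptors such as those for somatostatin are active, differed in their calls. Kcnj5 measured 0.28, 0.417, 0.573 and 0.214 CPM in control and 0.31, 0.536, 0.415 and 0.289 CPM with IL-1β. It measured 1.22, 1.06, 0.657 and 0.626 CPM with both additions and 1.05, 0.977, 0.941 and 1.12 CPM with butyrate. All butyrate-treated libraries were above all others, and Kcnj5 rose 2.34-fold when butyrate was added to IL-1β (log2 fold change 1.22 ± 0.32, adjusted p = 0.00447) and 2.75-fold with butyrate alone (log2 fold change 1.46 ± 0.32, adjusted p = 0.000793). The first of these calls was lost in 6 of 25 alternatives, with an adjusted p of up to 0.0293. Alternatives were another scaling, filter, tool, model or threshold, or 1 library left out. The looser threshold cannot lose a call, and leaving out a library of a condition not compared bears on it only indirectly. Counts of losses out of all alternatives can therefore make a call look steadier than it is. Apart from the fit to the compared libraries alone, each loss for Kcnj5 came from leaving out a library of a compared condition. Kcnj5 had 5 to 12 counts per library in control, 6 to 11 with IL-1β, 13 to 30 with both and 18 to 26 with butyrate. It met the rule only through libraries with butyrate, so its rises there support nothing about the family. Kcnj6, which had the highest level of this group, measured 4.62, 5.04, 5.49 and 4.88 CPM in control, 3.52, 4.48, 5.6 and 6.06 CPM with IL-1β, 3.13, 4.58, 4.64 and 4.48 CPM with both and 3.57, 5.55, 4.39 and 5.33 CPM with butyrate. All conditions overlapped, and Kcnj6 was called in no comparison. Kcnj3 was lower only with both additions against control (log2 fold change -0.96 ± 0.17, adjusted p = 4.59e-05), and the differences between comparisons were not tested.

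Of the remaining rectifiers, Kcnj10 (Kir4.1), a channel known from glia, measured 0.327, 0.208, 0.478 and 0.514 CPM in control and 1.91, 1.75, 1.19 and 2.53 CPM with IL-1β. With both additions it measured 1.26, 0.934, 1.36 and 2.02 CPM, and with butyrate 0.703, 0.711, 0.732 and 0.43 CPM. IL-1β libraries lay above all control and butyrate libraries. Kcnj10 rose 4.88-fold with IL-1β (log2 fold change 2.29 ± 0.31, adjusted p = 1.50e-06). Kcnj9, a G-protein-gated subunit whose gene lies 11.9 kb from Kcnj10 on chromosome 1, had 1 to 2 counts per library in control, 4 to 12 with IL-1β, 8 to 21 with both and 4 to 9 with butyrate. Its fitted log2 fold changes (2.22 ± 0.57 with IL-1β, 2.31 ± 0.56 with butyrate) depend on the prior count at such numbers. Kcnj9 met the rule only through libraries with IL-1β, so its rise there supports nothing about the family, and the call with IL-1β was lost in 3 of 23 alternatives. Kcnj4 (Kir2.3) rose with butyrate alone (log2 fold change 0.81 ± 0.12, adjusted p = 5.23e-06) and with butyrate added to IL-1β (log2 fold change 0.89 ± 0.11, adjusted p = 6.07e-07), from 2.92 ± 0.30 CPM in control (SD, n = 4). Kcnj2, Kcnj12 and Kcnj16 were called in no comparison.

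The 2-pore-domain channels carry the background potassium current, and the largest fall of the family in CPM was among them. Kcnk16 (TALK-1) measured 436, 448, 412 and 408 CPM in control and 424, 469, 400.1 and 377 CPM with IL-1β. It measured 137, 136, 142 and 141 CPM with both additions and 149, 131, 142 and 126 CPM with butyrate. The highest of the 8 libraries with butyrate was at 149 CPM and the lowest of the 8 without it at 377 CPM. Kcnk16 fell 3.11-fold with butyrate alone (log2 fold change -1.64 ± 0.06, adjusted p = 6.48e-17) and 3.0-fold when butyrate was added to IL-1β (log2 fold change -1.59 ± 0.06, adjusted p = 1.31e-16), whereas IL-1β alone gave a log2 fold change of -0.03 ± 0.06 (adjusted p = 0.767). Its share of the RPKM summed over the family was 40.5% in control, 41.8% with IL-1β, 18.1% with both and 17.0% with butyrate (SD of 4 libraries 1.59, 2.95, 0.0996 and 1.39). The summed RPKM of the family was 443 ± 3.30 in control and 339.5 ± 2.55 with butyrate, and without Kcnk16 it was 264 ± 5.97 and 282 ± 6.36 (SD, n = 4).

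Kcnk13 (THIK-1), a 2-pore channel known from microglia, was low and fell as well. It had 0.834 to 1.37 CPM in control, 1.34 to 1.71 CPM with IL-1β, 0.284 to 0.394 CPM with both and 0.129 to 0.523 CPM with butyrate. It fell with butyrate alone (log2 fold change -1.79 ± 0.31, adjusted p = 5.72e-05) and with butyrate added to IL-1β (log2 fold change -2.18 ± 0.29, adjusted p = 1.55e-06). No library with butyrate reached the lowest one without it. Kcnk13 met the rule only through libraries without butyrate, so its fall supports nothing about the family.

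Kcnk3 (TASK-1), an acid-sensitive channel described in islets, measured 18.6, 16.2, 17.7 and 17.1 CPM in control and 15.4, 13.6, 14 and 12.8 CPM with IL-1β. It measured 22, 18.7, 20.5 and 17.8 CPM with both and 24.8, 21.3, 19.9 and 19.4 CPM with butyrate. IL-1β libraries were the lowest, and butyrate libraries were above all control libraries. Kcnk3 fell with IL-1β (log2 fold change -0.32 ± 0.08, adjusted p = 0.00376), rose with butyrate added to IL-1β (log2 fold change 0.51 ± 0.08, adjusted p = 2.39e-05) and rose with butyrate alone (log2 fold change 0.30 ± 0.08, adjusted p = 0.00523). The first call was lost in 6 of 25 alternatives and the last in 5 of 25, with adjusted p-values of up to 0.0270 and 0.0402. Apart from library sizes as the only scaling, which lost the first call, each loss came from leaving out a library of a compared condition. Kcnk3 is among the genes of the family that the study chose on these samples, with Kcnj11, Kcnf1 and Kcnh2, so that their directions are not independent evidence.

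Kcnk1 (TWIK-1) rose with IL-1β (log2 fold change 0.30 ± 0.05, adjusted p = 5.17e-05), from 43.6, 44.1, 46.9 and 46.7 CPM in control to 59.3, 58.8, 53.6 and 52.1 CPM. No IL-1β library overlapped with control. Kcnk1 measured 48.8, 54.2, 48.3 and 52.3 CPM with both and 43.8, 42.7, 41 and 41.4 CPM with butyrate, and neither butyrate comparison was called. Kcnk10 (TREK-2), a channel opened by stretch and lipids, measured 2.52, 3.34, 4.01 and 3.47 CPM in control and 1.34, 2.39, 2.02 and 1.8 CPM with IL-1β and fell (log2 fold change -0.82 ± 0.19, adjusted p = 0.00156). Its 4 control libraries lay above its 4 IL-1β libraries. With both additions Kcnk10 measured 1.87, 2.59, 3.11 and 2.6 CPM, a difference from IL-1β that did not pass the test (adjusted p = 0.105), and with butyrate 2.06, 3.24, 2.61 and 2.92 CPM. Kcnk2, Kcnk6 and Kcnk12 were called in no comparison, and Kcnk12 was the highest of them at 7.07 ± 0.592 RPKM in control.

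Voltage-gated channels of the Kv1 to Kv4 groups open on depolarization and end the action potential, and 12 of them met the rule. Kcna7 (Kv1.7) had the largest fold rise of the family in both butyrate comparisons. Kcna7 measured 0.513, 0.625, 0.0955 and 0.642 CPM in control and 0.465, 0.487, 0.674 and 0.541 CPM with IL-1β. With both additions it measured 3.53, 2.72, 2.8 and 3.13 CPM, and with butyrate 2.66, 3.33, 2.87 and 3.48 CPM. Every library with butyrate was above every library without it, and the 8 libraries without butyrate had at most 15 counts each. Kcna7 rose 6.42-fold with butyrate (log2 fold change 2.68 ± 0.25, adjusted p = 5.28e-09) and 5.58-fold with butyrate added to IL-1β (log2 fold change 2.48 ± 0.25, adjusted p = 1.57e-08). Kcna2 (Kv1.2) went down in both single treatments, from 21.6, 19.2, 21.4 and 25.2 CPM in control to 15.8, 12.6, 14.7 and 13.4 CPM with IL-1β (log2 fold change -0.63 ± 0.10, adjusted p = 6.07e-05) and 13.2, 13.9, 17.9 and 18.9 CPM with butyrate (log2 fold change -0.45 ± 0.10, adjusted p = 0.00178). With both additions it measured 16, 14.2, 15.5 and 16 CPM, inside the range with butyrate alone.

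**Figure D4:**
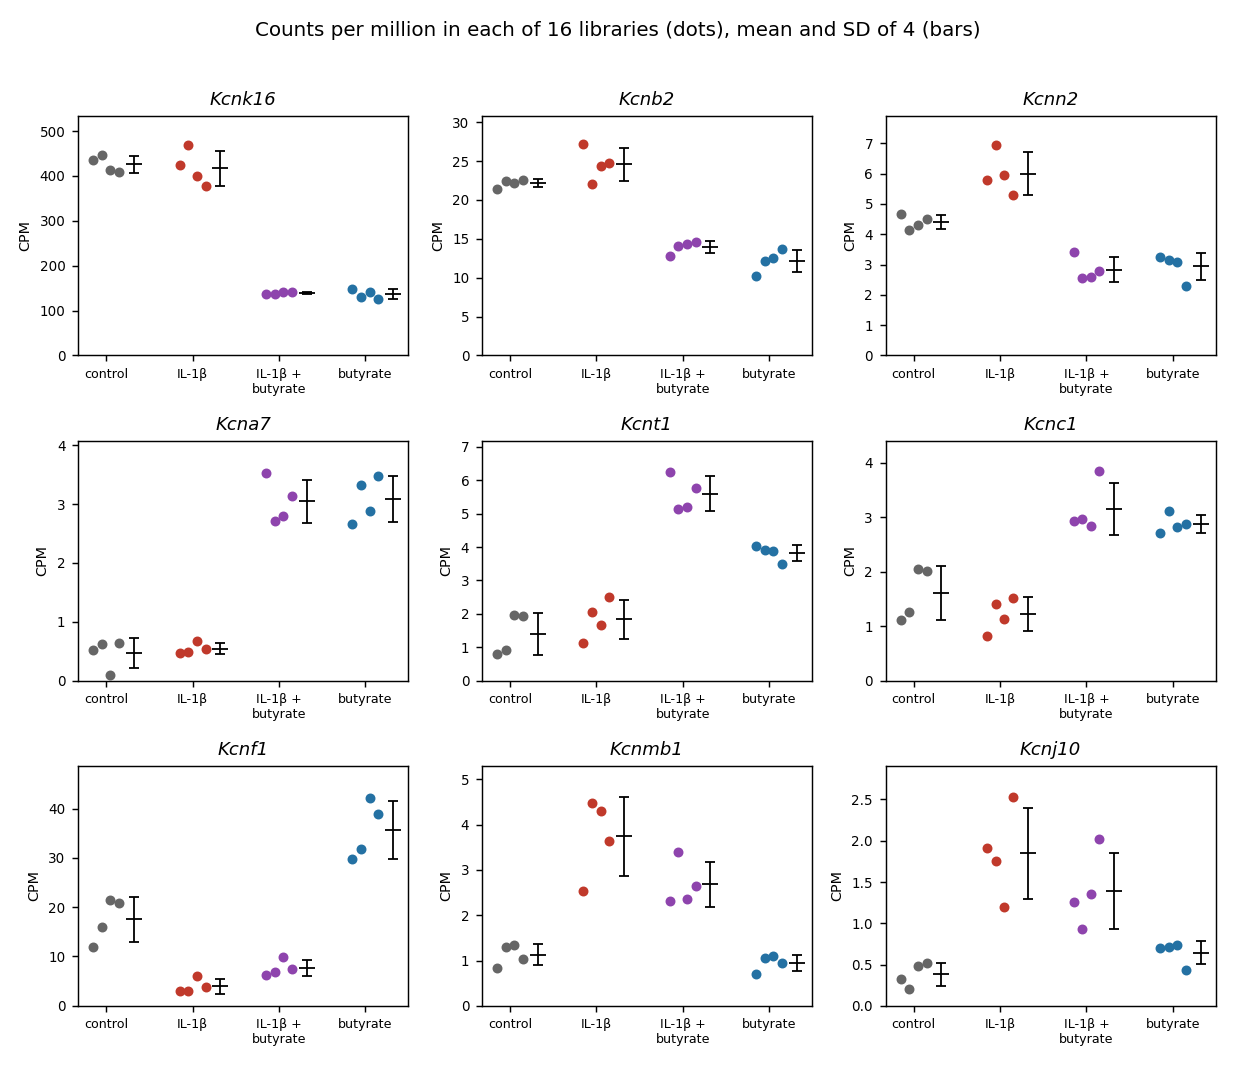
CPM of 9 Kcn genes in each of 16 libraries (dots) with the mean and SD of 4 (bars), by condition. Kcnk16, Kcnb2 and Kcnn2 were lower in all butyrate-treated libraries, Kcna7, Kcnt1 and Kcnc1 were higher in all of them, Kcnf1 was lowest with IL-1β, and Kcnmb1 and Kcnj10 were lowest without it.

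Kv2 channels carry the delayed rectifier current of islet cells. Kcnb2 (Kv2.2), known from delta cells, measured 21.5, 22.4, 22.2 and 22.6 CPM in control and 27.2, 22.1, 24.3 and 24.7 CPM with IL-1β. It measured 12.8, 14.1, 14.3 and 14.5 CPM with both and 10.2, 12.1, 12.5 and 13.6 CPM with butyrate. The highest butyrate-treated library was at 14.5 CPM and the lowest other library at 21.5 CPM. Kcnb2 fell with butyrate alone (log2 fold change -0.87 ± 0.08, adjusted p = 1.71e-09) and with butyrate added to IL-1β (log2 fold change -0.82 ± 0.07, adjusted p = 3.05e-09).

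The summed level of 4 delta cell markers (Sst, Hhex, Rbp4 and Ghsr) moved with butyrate as well. It was 1696 to 1995 CPM in control, 1747 to 2222 CPM with IL-1β, 2627 to 3190 CPM with both additions and 2395 to 2775 CPM with butyrate. Of the 4, Sst (somatostatin) alone was called higher in each butyrate comparison, and the part of these cells in the changes of Kcnb2 and the other genes was not tested.

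Kv3 channels repolarize fast-firing cells. Kcnc1 (Kv3.1) measured 1.12, 1.25, 2.05 and 2.01 CPM in control and 0.827, 1.41, 1.14 and 1.52 CPM with IL-1β. It measured 2.92, 2.97, 2.85 and 3.85 CPM with both and 2.71, 3.11, 2.82 and 2.88 CPM with butyrate, above every library without butyrate. The rise passed the test for butyrate alone (log2 fold change 0.84 ± 0.19, adjusted p = 0.00143) and for butyrate added to IL-1β (log2 fold change 1.33 ± 0.20, adjusted p = 9.83e-06). Kcnc2 (Kv3.2) rose in the same comparisons (0.51 ± 0.13 and 0.60 ± 0.12, adjusted p = 0.00279 and adjusted p = 0.000333), the first of which was lost in 3 of 25 alternatives, with an adjusted p of up to 0.0236. Kcnc4 (Kv3.4) measured 1.54, 2.71, 3.3 and 2.48 CPM in control and 1.55, 0.974, 1.76 and 1.44 CPM with IL-1β. It measured 0.69, 0.976, 1.4 and 1.49 CPM with both and 1.31, 1.73, 2.61 and 1.29 CPM with butyrate. Only the libraries with both additions stood clear of control, and this fall was called (log2 fold change -1.15 ± 0.26, adjusted p = 0.000926).

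Kv4 channels carry the fast A-type current. Kcnd1 (Kv4.1) measured 9.01, 10.1, 10.7 and 10.2 CPM in control and 12.9, 12.5, 11.9 and 12.6 CPM with butyrate, with no overlap (log2 fold change 0.32 ± 0.08, adjusted p = 0.0051), a call lost in 7 of 25 alternatives with an adjusted p of up to 0.0252. With IL-1β it measured 9.98, 8.71, 11.6 and 11.2 CPM and with both additions 12.4, 11.1, 13.1 and 12.2 CPM. Kcnd1 was called higher with both additions than in control (log2 fold change 0.29 ± 0.08, adjusted p = 0.00673), a call lost in 6 of 25 alternatives with an adjusted p of up to 0.0353, and not against IL-1β (adjusted p = 0.0366). Kcnd3 (Kv4.3) measured 1.68, 2.08, 2.05 and 1.8 CPM in control, above all other libraries. It measured 0.362, 0.828, 0.83 and 0.83 CPM with IL-1β, 0.69, 0.721, 0.569 and 0.482 CPM with both and 0.502, 0.888, 0.888 and 1.33 CPM with butyrate. Kcnd3 fell 2.63-fold with IL-1β (log2 fold change -1.39 ± 0.25, adjusted p = 0.000109) and 2.08-fold with butyrate (log2 fold change -1.05 ± 0.24, adjusted p = 0.00153). The Kv1 genes also include Kcna5, lower with both additions against control (log2 fold change -0.70 ± 0.20, adjusted p = 0.00677), a call lost in 6 of 25 alternatives with an adjusted p of up to 0.0309, and Kcna1, which was called in no comparison.

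Silent subunits do not form channels alone but change the gating of Kv2 channels. Kcnf1 (Kv5.1) measured 11.9, 15.9, 21.5 and 20.8 CPM in control and 3.0, 2.92, 6.12 and 3.75 CPM with IL-1β. With both additions it measured 6.25, 6.79, 9.99 and 7.42 CPM, and with butyrate 29.8, 31.7, 42.2 and 38.8 CPM. The 4 conditions did not overlap, with IL-1β lowest, then IL-1β with butyrate, control and butyrate. Kcnf1 fell 4.46-fold with IL-1β (log2 fold change -2.16 ± 0.27, adjusted p = 3.89e-05) and rose 2.03-fold with butyrate alone (log2 fold change 1.02 ± 0.21, adjusted p = 0.00201). The second call was lost when only the libraries of control and butyrate were fitted (adjusted p = 0.0109). For butyrate added to IL-1β the log2 fold change was 0.95 ± 0.30 and missed the threshold (adjusted p = 0.0274), and its difference from the effect without IL-1β was -0.07 ± 0.37 (adjusted p = 0.993). Kcng3 (Kv6.3) was at 1.71 ± 0.382 CPM in control and 2.86 ± 0.656 CPM with both additions (SD, n = 4) and was called higher there (log2 fold change 0.74 ± 0.20, adjusted p = 0.00395), a call lost in 4 of 25 alternatives with an adjusted p of up to 0.0309.

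KCNQ channels give slow, sustained currents that limit firing, and 5 met the rule. Kcnq1 (Kv7.1) measured 0.327, 0.75, 0.334 and 0.385 CPM in control and 0.414, 0.682, 0.726 and 0.505 CPM with IL-1β. It measured 1.1, 1.32, 1.93 and 0.963 CPM with both and 1.31, 1.95, 1.05 and 1.16 CPM with butyrate, above every library without it. Kcnq1 rose with butyrate alone (log2 fold change 1.58 ± 0.31, adjusted p = 0.00028) and with butyrate added to IL-1β (log2 fold change 1.19 ± 0.30, adjusted p = 0.00317), the second of which was lost in 3 of 25 alternatives. Its antisense transcript Kcnq1ot1 shares 121 bases with its exons and had 10912 counts in all against 330 for Kcnq1, and since the strand used in counting is not given in the sources used here, their reads may not be told apart. Kcnq3 and Kcnq5 were called in no comparison.

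The EAG family holds the ERG channels, which control excitability in islets and heart, and the EAG and ELK channels. Kcnh6, the highest EAG gene in RPKM, measured 150.4, 138, 155 and 148 CPM in control and 136, 121, 142 and 161 CPM with IL-1β. It measured 128, 123, 139 and 151 CPM with both and 125, 129, 131 and 147 CPM with butyrate. All conditions overlapped, and the log2 fold changes of the 4 comparisons lay between -0.16 and -0.05 (smallest adjusted p = 0.142). Kcnh2 measured 101, 102, 101 and 99.2 CPM in control and 88.5, 84.4, 88.9 and 90.9 CPM with IL-1β. With both additions it measured 101, 102, 118 and 107 CPM, and with butyrate 108, 119, 117 and 118 CPM. IL-1β libraries were below all others, and Kcnh2 fell with IL-1β (log2 fold change -0.19 ± 0.05, adjusted p = 0.00446), rose with butyrate added (log2 fold change 0.28 ± 0.05, adjusted p = 9.84e-05) and rose with butyrate alone (log2 fold change 0.20 ± 0.05, adjusted p = 0.00254). The call with IL-1β was lost in 7 of 25 alternatives, with an adjusted p of up to 0.0946, and the last in 4 of 25. Apart from library sizes as the only scaling, which lost both calls, each loss came from leaving out a library of a compared condition.

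Kcnh4, an ELK channel, measured 0.607, 0.334, 0.478 and 0.30 CPM in control and 0.569, 0.487, 0.622 and 0.614 CPM with IL-1β. It measured 2.15, 1.32, 1.09 and 1.4 CPM with both and 1.81, 1.33, 0.888 and 0.86 CPM with butyrate. The butyrate-treated libraries were all above the rest, and Kcnh4 rose 2.84-fold with butyrate alone (log2 fold change 1.51 ± 0.31, adjusted p = 0.000504) and 2.59-fold with butyrate added to IL-1β (log2 fold change 1.37 ± 0.29, adjusted p = 0.00057). Kcnh3, another ELK channel, rose in both comparisons (0.45 ± 0.12 and 0.54 ± 0.11, adjusted p = 0.00435 and adjusted p = 0.000481), with overlap between butyrate and control and with the first call lost in 5 of 25 alternatives (adjusted p of up to 0.0263). Kcnh1 (EAG1) was higher with butyrate alone (log2 fold change 1.06 ± 0.21, adjusted p = 0.00177), from 15.2 ± 3.89 to 31.6 ± 4.88 CPM (SD, n = 4), and just missed the threshold with butyrate added to IL-1β (log2 fold change 0.78 ± 0.20, adjusted p = 0.0107). Kcnh8 was lower with butyrate alone (log2 fold change -0.53 ± 0.14, adjusted p = 0.00396), a call lost in 4 of 25 alternatives. Kcnh5 and Kcnh7 were called in no comparison.

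Of the channels opened by calcium or sodium, Kcnma1 is the pore of the BK channel and measured 107, 105, 109 and 107 CPM in control and 96.3, 80.9, 91.8 and 89.7 CPM with IL-1β. It measured 93.6, 101, 101 and 107 CPM with both and 98.6, 118, 113 and 125 CPM with butyrate. Kcnma1 fell with IL-1β (log2 fold change -0.25 ± 0.06, adjusted p = 0.00192), with no overlap with control, and the call was lost in 2 of 25 alternatives. Kcnmb2, a beta subunit that makes BK channels inactivate, measured 92.8, 91, 94.2 and 88.8 CPM in control, above all other libraries, and 83.5, 79.7, 78.7 and 76.3 CPM with IL-1β. It measured 69.3, 78, 77.7 and 71 CPM with both and 80.4, 81.7, 81.1 and 76.9 CPM with butyrate. Kcnmb2 fell with IL-1β (log2 fold change -0.21 ± 0.05, adjusted p = 0.00124) and with butyrate (log2 fold change -0.20 ± 0.05, adjusted p = 0.00185), the second of which was lost without replicate 4 of butyrate (adjusted p = 0.0104). In islets with both additions it had a log2 fold change of -0.31 ± 0.05 against control (adjusted p = 4.50e-06), and these libraries overlapped with those of each single addition.

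Kcnmb1, the BK beta subunit of smooth muscle, went the other way. Kcnmb1 measured 0.84, 1.29, 1.34 and 1.03 CPM in control and 2.53, 4.48, 4.3 and 3.65 CPM with IL-1β. It measured 2.31, 3.4, 2.36 and 2.65 CPM with both and 0.703, 1.07, 1.1 and 0.946 CPM with butyrate. The IL-1β-treated libraries were all above the rest, and Kcnmb1 rose 3.31-fold with IL-1β (log2 fold change 1.73 ± 0.20, adjusted p = 1.50e-07) and 2.37-fold with both additions against control (log2 fold change 1.25 ± 0.21, adjusted p = 1.97e-05). Its gene lies inside the span of Kcnip1 on chromosome 11 without shared exon bases, and Kcnip1 had log2 fold changes of -0.17 ± 0.09 and 0.00 ± 0.09 in these comparisons (adjusted p = 0.227 and adjusted p = 0.992).

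Small-conductance (SK) channels are opened by calcium through calmodulin. Kcnn3 was the highest of them, at 39.2, 39.1, 47.7 and 45.2 CPM in control and 41.7, 44.1, 49.9 and 51.4 CPM with IL-1β. It measured 42, 48.3, 48.7 and 54.1 CPM with both and 35.8, 40.1, 43.5 and 51.3 CPM with butyrate, overlapped between all conditions and was called in no comparison. Kcnn2 measured 4.67, 4.13, 4.3 and 4.49 CPM in control and 5.79, 6.96, 5.96 and 5.3 CPM with IL-1β. It measured 3.41, 2.55, 2.58 and 2.79 CPM with both and 3.26, 3.15, 3.08 and 2.28 CPM with butyrate. IL-1β libraries were the highest and butyrate-treated libraries the lowest, without overlap with control on either side. Kcnn2 rose with IL-1β (log2 fold change 0.44 ± 0.12, adjusted p = 0.00701), a call lost in 6 of 25 alternatives, and fell with butyrate added to IL-1β (log2 fold change -1.07 ± 0.13, adjusted p = 3.88e-07) and with butyrate alone (log2 fold change -0.58 ± 0.13, adjusted p = 0.00146), the last lost without replicate 4 of butyrate (adjusted p = 0.0111). Kcnn4, the intermediate-conductance channel found in islets and leukocytes, measured 1.91, 1.33, 1.58 and 1.33 CPM in control and 0.982, 1.8, 1.87 and 1.66 CPM with IL-1β. It measured 3.21, 2.55, 3.42 and 3.37 CPM with both and 2.31, 2.13, 3.5 and 3.36 CPM with butyrate, above all libraries without it. Kcnn4 rose with butyrate alone (log2 fold change 0.88 ± 0.20, adjusted p = 0.00138) and with butyrate added to IL-1β (log2 fold change 0.98 ± 0.20, adjusted p = 0.000379). Kcnn1 rose with butyrate alone (log2 fold change 0.41 ± 0.12, adjusted p = 0.00887), and this call was lost in 10 of 25 alternatives.

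Sodium-activated channels changed from low levels. Kcnt1 (Slack) measured 0.793, 0.917, 1.96 and 1.93 CPM in control and 1.14, 2.04, 1.66 and 2.49 CPM with IL-1β. It measured 6.25, 5.14, 5.21 and 5.78 CPM with both and 4.02, 3.91, 3.87 and 3.48 CPM with butyrate. All butyrate-treated libraries were above the rest, and those with both additions were above those with butyrate alone. Kcnt1 rose 2.73-fold with butyrate alone (log2 fold change 1.45 ± 0.22, adjusted p = 2.10e-05), 2.98-fold with butyrate added to IL-1β (log2 fold change 1.58 ± 0.20, adjusted p = 2.14e-06) and 4.0-fold with both additions against control (log2 fold change 2.00 ± 0.21, adjusted p = 3.96e-08). Kcnt2 (Slick) had 0 to 4 counts per library in control, 11 to 30 with IL-1β, 4 to 9 with both and 1 to 6 with butyrate, and was called higher with IL-1β (log2 fold change 3.26 ± 0.50, adjusted p = 1.07e-05) and lower with butyrate added (log2 fold change -1.86 ± 0.41, adjusted p = 0.000955). Kcnt2 met the rule only through the IL-1β libraries, so its rise there and its fall from them with butyrate support nothing about the family. Its fitted values depend on the prior count. Kcnu1, a pH-sensitive channel known from sperm, was lower with both additions against control (log2 fold change -0.51 ± 0.13, adjusted p = 0.00155), and Kcnmb4 was called in no comparison.

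Macrophage markers moved with several of these genes. The summed level of 6 of them (Adgre1, Cd68, Csf1r, Lyz2, Aif1 and Ptprc) was 13.8 to 23.1 CPM in control, 65.2 to 114 CPM with IL-1β, 29.4 to 63.5 CPM with both additions and 11.7 to 20.4 CPM with butyrate, and none was at 0. All 6 were called higher with IL-1β, and 2 of the 6 lower with butyrate added. The sum of 4 duct markers was 12.1 to 18.01 CPM in control, 99.6 to 211 CPM with IL-1β, 196.5 to 463.5 CPM with both additions and 22.8 to 48.6 CPM with butyrate, and of the 3 tested only Spp1, also made by macrophages, was called higher with IL-1β (3.74 on the log2 scale). The PP cell marker was at 1374 to 2053 CPM in control, 1015 to 1412 CPM with IL-1β, 1354 to 1887 CPM with both and 2207 to 2753 CPM with butyrate, and was called in no comparison. The part of these cells in the rise of Kcnmb1, Kcnj10, Kcnj9, Kcnt2, Kcnk1 and Kcnn2 with IL-1β was not tested. Of 6 fibroblast, stellate and pericyte markers, 5 were tested, 0 were higher and 2 lower with IL-1β, and their sum was 6.72 to 14.3 CPM in control and 4.70 to 10.2 CPM with IL-1β. Of 6 Schwann cell and neuron markers, 1 (Elavl4) was higher, and their sum was 77.1 to 81.6 CPM in control and 81.2 to 92 CPM with IL-1β. None of these markers was at 0 in a whole condition. Kcnk13 and Kcnn4, also found in macrophages, were not called with IL-1β (log2 fold change 0.47 ± 0.24, adjusted p = 0.149 and log2 fold change 0.05 ± 0.22, adjusted p = 0.9). A missed call at their low levels does not show that they were unchanged, and the part of macrophages in their levels was not tested.

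Of the 8 auxiliary genes, Kcnab3, a beta subunit that binds Kv1 channels, was the highest and changed in every comparison. Kcnab3 measured 49.7, 47.3, 45.2 and 44.6 CPM in control and 44.6, 40.4, 36.8 and 37.2 CPM with IL-1β. With both additions it measured 61.4, 57.6, 55.2 and 53.1 CPM, and with butyrate 81.6, 83, 74.6 and 72.4 CPM. Butyrate libraries were the highest, IL-1β libraries the lowest, and those with both additions lay between butyrate and control. Kcnab3 fell with IL-1β (log2 fold change -0.23 ± 0.06, adjusted p = 0.00536), where the highest IL-1β library reached the lowest control library and the call was lost in 6 of 25 alternatives, and rose with butyrate alone (log2 fold change 0.74 ± 0.06, adjusted p = 5.82e-10) and with butyrate added to IL-1β (log2 fold change 0.52 ± 0.06, adjusted p = 3.28e-07). The antisense transcript Kcnab3os shares 147 bases with it and had 291 counts in all, against 19457 for Kcnab3.

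Kcnip genes encode calcium-binding partners of Kv4 channels. Kcnip1 measured 79.6, 99.4, 99.6 and 101 CPM in control and 76.5, 91, 90.0 and 81.3 CPM with IL-1β. It measured 84.4, 101, 96 and 99.1 CPM with both and 81, 89.8, 106 and 103 CPM with butyrate, and all conditions overlapped. Kcnip4 measured 8.77, 8.92, 9.94 and 11.2 CPM in control, 6.67, 5.5, 6.12 and 6.64 CPM with IL-1β, 5.32, 5.26, 6.61 and 5.49 CPM with both and 7.83, 8.44, 8.41 and 7.66 CPM with butyrate. It fell with IL-1β (log2 fold change -0.64 ± 0.10, adjusted p = 1.28e-05), where no library overlapped with control, and the difference with butyrate alone, also without overlap, missed the threshold (log2 fold change -0.27 ± 0.10, adjusted p = 0.0374). Kcnab1, Kcnab2, Kcnip2, Kcnip3 and Kcnrg were called in no comparison.

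The effect of butyrate was measured without IL-1β (butyrate against control) and with it (IL-1β plus butyrate against IL-1β), in comparisons that share no library. Across the 65 genes the log2 fold changes had Pearson's r = 0.776 and Spearman's rho = 0.744, as a description across genes, which are not independent replicates. Of the genes called, 17 were called in both, 13 higher and 4 lower in both and 0 in opposite directions, which was 63.0% of the 27 called without IL-1β and 85.0% of the 20 called with it. Another 10 were called only without IL-1β, and 3 only with it, Kcnj11 and Kcnt2 among them. The genes called in both include Kcnj5, which met the rule only through libraries with butyrate, and Kcnk13, which met it only through libraries without butyrate. Their shared directions support nothing about the family, and the correlation includes them. The correlation and the overlap were not computed over all genes, so whether they are particular to the family was not tested.

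The difference of the butyrate effects itself was tested, and edgeR called 0 of the 65 genes, against 0.043% of all genes higher and 0.0538% lower. At an unadjusted p under 0.05 there were 11, and DESeq2 called 0 of the 65, with 9 at an unadjusted p under 0.05. Kcna2 had the smallest adjusted p, with a difference of 0.58 ± 0.15 (adjusted p = 0.123), from -0.45 ± 0.10 without IL-1β to 0.13 ± 0.11 with it. Without the filter on low counts, Kcna2 was called in this test (adjusted p = 2.22e-05 in edgeR), and likewise with the replicate number as a block (adjusted p = 0.00158). Kcnj11 had a difference of 0.13 ± 0.06 (adjusted p = 0.681) and Kcnk16 of 0.05 ± 0.08 (adjusted p = 0.963).

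**Figure D5:**
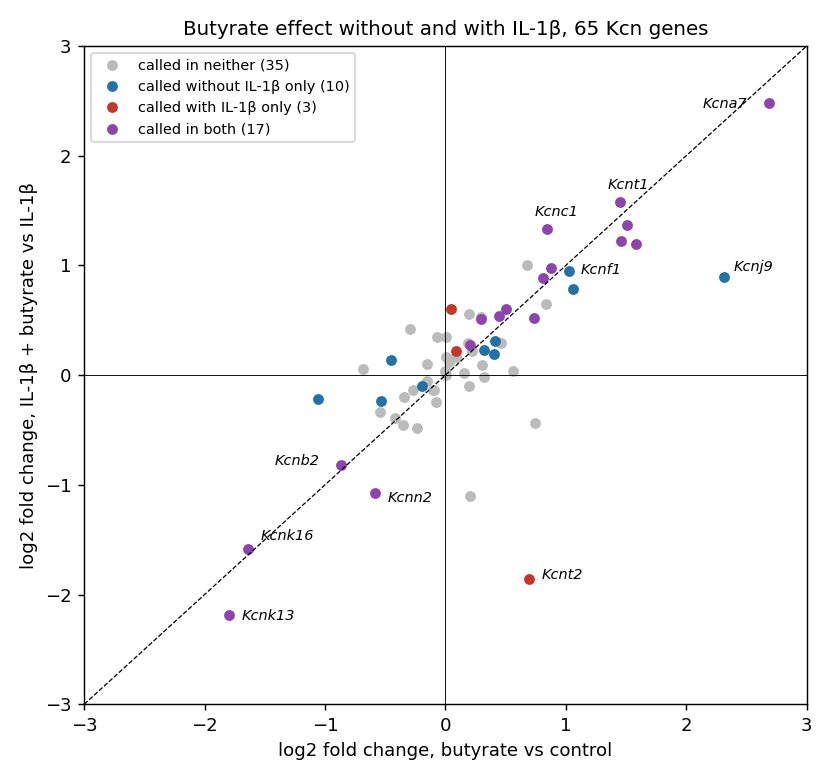
Log2 fold change of butyrate against control (horizontal axis) and of IL-1β plus butyrate against IL-1β (vertical axis) for the 65 Kcn genes, coloured by where each was called, with a dashed line of equal values. Of the points, 17 were called in both comparisons, 10 only without IL-1β, 3 only with it and 35 in neither, and Kcnt2 lies apart at 0.70 and -1.86.

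Genes that act in the same complexes, or in related channels, were listed apart from the Kcn genes. Of 16 on the list, 14 were tested. With IL-1β, 3 were higher and 4 lower (11.2% and 6.59% of all genes), with butyrate added to IL-1β 4 and 2 (8.41% and 11.1%), with butyrate alone 6 and 2 (8.53% and 11.4%), and with both additions against control 6 and 4 (15.8% and 14.8%). The list had a median log2 fold change of 0.01, 0.04, 0.22 and 0.10 in these comparisons.

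Dpp10, a partner of Kv4 channels, was among the lower ones. It measured 25.7, 21.6, 22.4 and 19.3 CPM in control and 13.9, 11.2, 10.4 and 10.6 CPM with IL-1β. It measured 11.5, 9.21, 9.24 and 8.52 CPM with both additions and 18, 16.3, 14.5 and 14.2 CPM with butyrate. Control was the highest condition, and Dpp10 fell with IL-1β (log2 fold change -0.95 ± 0.11, adjusted p = 2.66e-07) and with butyrate (log2 fold change -0.50 ± 0.10, adjusted p = 0.000636). Stx1a, a membrane fusion protein of exocytosis, rose with IL-1β (log2 fold change 0.39 ± 0.08, adjusted p = 0.000537), with butyrate alone (log2 fold change 0.37 ± 0.08, adjusted p = 0.000961) and with butyrate added to IL-1β (log2 fold change 0.33 ± 0.08, adjusted p = 0.00165). Vapb, which ties Kv2 channels to the endoplasmic reticulum, was lower with IL-1β (log2 fold change -0.26 ± 0.05, adjusted p = 0.000105) and higher with butyrate alone (log2 fold change 0.31 ± 0.05, adjusted p = 1.55e-05) and butyrate added to IL-1β (log2 fold change 0.27 ± 0.05, adjusted p = 7.65e-05).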

How the data were processed

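Islet RNA of 16 libraries was sequenced by the authors, who mapped single-end reads with STAR 2.5.3a to the mouse genome (GRCm38.p5 in the submitters' processing notes) and deposited counts of reads per gene, whole numbers without normalization. The annotation release and the strand setting are not given in the sources used here. All columns belonged to the 16 libraries. Groups were taken from the sample titles. Symbols, positions and exon lengths came from GENCODE M21, which holds 52489 of 52636 identifiers. Of the 65 genes, 22 share exon bases with another gene, mostly on the opposite strand, so that reads there may belong to either.

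Genes with low counts were left out by filterByExpr of edgeR 4.0.16 (R 4.3.3), which all 65 genes passed. edgeR then scaled by TMM and fitted a robust quasi-likelihood model of the 4 conditions to all 16 libraries. p-values were adjusted over 18587 genes with the study's threshold of 0.01. SE is the absolute log2 fold change divided by the square root of F. No p was adjusted over the family alone. CPM used TMM-scaled library sizes, and RPKM divided them by exon length. A library had 18635943 to 25955943 counts. The chi-square per gene between libraries of 1 condition was 1.72 to 13.5, so that no library repeated the counts of another. It was lowest for control replicates 3 and 4, and the next lowest value was 3.33. The chi-square cannot tell whether libraries came from the same RNA or islets. The pipeline was tested on simulated data. Alternatives were RLE, upper-quartile and no scaling factors, DESeq2 1.42.0, no filter, a filter on a mean of 0.5 CPM, the replicate number as a block, fits to the compared libraries alone, a threshold of 0.05, and leaving out each library.

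Values in every library are given for genes that the study's text names, for channels with a known place in the islet, for the 4 largest rises and 4 largest falls among called genes with an average log2 CPM of at least 0 (edgeR) in each comparison, and for the highest gene of each subfamily. These were 33 genes, of which 29 are given, some results being not reported here, and Kcna2, Abcc8, Abcc9 and Dpp10 were added after their values were seen. Kcne2 of that list had too few counts to meet the rule, and no gene in the counts had the symbol Kcnk17. The genes and lists were chosen with earlier results of these data known. Promoters were matched by symbol in the RefSeq table (1 start per gene). The 17 genes without an entry include Kcna1, Kcnab3, Kcnb2, Kcnd1, Kcnh3, Kcnj11, Kcnk3, Kcnk6, Kcnn2, Kcnq1, Kcnq3, Kcnt1 and Kcnu1.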

Additional observations from a re-analysis of the deposited data

Results flagged for a closer look

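Among the 29 genes given library by library, 116 groups of 4 libraries were searched for a library far from the other 3, and 8 were found, where chance gives about 1 in 20 groups. Kcnc1 was 3.85 CPM in replicate 4 of IL-1β plus butyrate, against 2.85 to 2.97 CPM in the others. Kcnd3 was 0.362 CPM in replicate 1 of IL-1β, against 0.828 to 0.830 CPM. Kcnh2 was 108 CPM in replicate 1 of butyrate, against 117 to 119 CPM. Kcnip1 was 79.6 CPM in replicate 1 of control, against 99.4 to 101 CPM. Kcnip4 was 6.61 CPM in replicate 3 of IL-1β plus butyrate, against 5.26 to 5.49 CPM. Kcnj10 was 0.430 CPM in replicate 4 of butyrate, against 0.703 to 0.732 CPM. Kcnj6 was 3.13 CPM in replicate 1 of IL-1β plus butyrate, against 4.48 to 4.64 CPM. Kcnq1 was 0.751 CPM in replicate 2 of control, against 0.327 to 0.385 CPM.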

How the results depend on the processing

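No called gene of the family changed direction under any alternative. Of the calls, 11 of 19 with IL-1β, 18 of 20 with butyrate added to IL-1β, 15 of 27 with butyrate alone and 26 of 30 with both additions against control held in every alternative that gave the gene an adjusted p. Kcnt2 is counted as held with a result in 24 alternatives for IL-1β and 23 for butyrate added to IL-1β. Kcnj9 is counted as held for both additions against control with a result in 23. The other calls that held had results in 25. The number of genes lower with IL-1β went from 12 to 7 with library sizes as the only scaling. The 5 genes lower with butyrate added to IL-1β became 9 at an adjusted p under 0.05. With the replicate block they became 8, and 1 gene (Kcna2) was called higher in the difference of the butyrate effects (log2 difference 0.59, adjusted p = 0.00158). Without a filter on low counts Kcna2 was called there too (log2 difference 0.59, adjusted p = 2.22e-05). The cause was not tested. Replicate numbers were not taken as pairing in the main fit, since no label says that a number marks a shared experiment. The libraries themselves leave pairing possible. Deviations from the condition mean correlated at 0.0535 to 0.397 in 24 same-number pairs (median 0.118, 17 above 0.1). In other pairs of libraries from different conditions the median was -0.0404. For 13 of 16 libraries, the best correlated library of another condition had the same number. Pairs within a condition were not part of this comparison. If numbers mark shared experiments, the main p-values ignore that pairing. With the block, 2586 of all genes were higher and 1951 lower with IL-1β, against 2087 and 1224 without it. Under the block the other counts stayed within 1.5 times the reported ones. Leaving out each library gave 4 to 8 genes higher and 9 to 12 lower with IL-1β (4 without control replicate 3), 13 to 17 and 5 to 6 with butyrate added to IL-1β, 13 to 19 and 5 to 9 with butyrate alone (5 without butyrate replicate 4), 15 to 18 and 12 to 13 with both additions against control, and 0 and 0 for the difference. No scaling moved the median of all genes by over 0.1. Genes under 1 CPM rest on few counts, which limits the precision of their values.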
